A study of Orbilia oligospora with 12 samples.

Results

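The genes of oxidative phosphorylation were followed in Arthrobotrys oligospora, a soil fungus that turns hyphae into adhesive networks to catch nematodes. They were taken as all genes whose deposited KEGG annotation lists the pathway map00190, which gave 74 of 11479 genes. By their KEGG orthology names, 21 of them code for subunits of complex I, 2 for alternative NADH dehydrogenases, 4 for complex II, 7 for complex III, 10 for complex IV, 14 for complex V (the ATP synthase) and 14 for the vacuolar ATPase. The other 2 are PMA1, the proton pump of the plasma membrane, and ppa, an inorganic pyrophosphatase. Of the 10 genes of complex IV, 6 code for subunits and 4 (COX10, COX11, COX15 and COX17) for proteins that make heme A or deliver copper. The subunits that fungi encode in mitochondrial DNA were not analysed here.

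Hyphae had grown for 5 days at 28 °C on potato dextrose agar, and their RNA was sequenced in 4 groups of 3 libraries: a strain labelled ΔAorlmA at 0 h and at 48 h, and the wild type at 0 h and at 48 h, all 12 under a label of trap induction by nematode extract. AorlmA is named in the series as a MADS-box transcription factor. The labels do not say whether the 3 libraries of a group came from separate cultures, or how many clones of the strain were used, so p-values measure the spread between these libraries, which may be technical. The gene annotated as RLM1, AOL_s00078g125, was still measured in the libraries labelled ΔAorlmA. It had 72.2, 116 and 164 TPM (transcripts scaled by length and library) in the ΔAorlmA libraries at 0 h, against 38.5, 40 and 30.2 TPM in the wild type at 0 h. Its values at 48 h were 109, 96.9 and 87.3 TPM in the ΔAorlmA libraries, against 32.3, 45.1 and 27.9 TPM in the wild type. The gene annotated as SNF1, AOL_s00173g192, was measured there as well, with 38.3, 53.9 and 37 TPM in the ΔAorlmA libraries at 0 h, against 103, 108 and 109 TPM in the wild type at 0 h (-1.31, limma adjusted p = 0.00648; 0.0774 with median-of-ratios scaling). At 48 h it had 23.6, 41 and 41.8 TPM in the ΔAorlmA libraries and 54.7, 36.3 and 28.5 TPM in the wild type, with overlap. Since the RLM1 values go against the label, and the growth protocol names another mutant (ΔAosnf1), "ΔAorlmA" below always means the libraries so labelled. A gene was tested where 3 or more libraries held at least 1 TPM of it (9355 genes, all 74 members among them), with limma on log2(TPM + 1), and a gene was called at a Benjamini-Hochberg adjusted p under 0.05 over all tested genes. Every log2 fold change below is on that scale.

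Oxidative phosphorylation couples the oxidation of NADH and succinate to the making of ATP in the inner mitochondrial membrane. Complex I and complex II hand electrons to ubiquinone, complex III passes them to cytochrome c, and complex IV passes them on to oxygen. Complexes I, III and IV pump protons out of the matrix, and complex V lets them back in to drive ATP synthesis. Fungi also carry alternative NADH dehydrogenases, single polypeptides that feed ubiquinone without pumping protons. The vacuolar ATPase and PMA1 run the other way: they spend ATP to move protons into the vacuole or out of the cell. The pathway map holds these pumps together with the mitochondrial complexes.

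The libraries held 48.5 to 61.1 M clean reads. The first ΔAorlmA library at each time stood apart: a single library of another group resembled it more than its own group did on average. For the 0 h library this was the third ΔAorlmA library at 48 h (correlation 0.924, own-group average 0.903). For the 48 h library it was the second wild-type library at 48 h (0.944, own-group average 0.932). In every other library the own-group average was the higher value. Counts are also given without both first ΔAorlmA libraries, an alternative added after seeing the data. The median of all tested genes was itself shifted: by -0.56 at 0 h and -0.11 at 48 h (ΔAorlmA minus wild type), by 0.14 over time in ΔAorlmA and by -0.25 over time in the wild type (48 h minus 0 h), and by 0.34 in the interaction. Fold changes are therefore also given relative to that median, and calls with median-of-ratios scaling, which brings these shifts to between -0.06 and 0.01, and with quantile normalization, which leaves -0.18 at 0 h. Summed marker levels also differed between the groups. The 6 conidia markers summed to 118 to 728 TPM in ΔAorlmA and 1835 to 2899 TPM in wild-type libraries at 0 h, and to 173 to 2024 TPM in ΔAorlmA and 446 to 1124 TPM in the wild type at 48 h. Of these sums 1 gene, AOL_s00006g570, gave 40.2 to 406 TPM in ΔAorlmA and 1793 to 2883 TPM in the wild type at 0 h, while the other 5 summed to 78 to 508 TPM in ΔAorlmA and 15.8 to 50.2 TPM in the wild type at 0 h, the opposite order. Of the 4 conidia markers tested at 0 h, 1 was higher and 2 lower in ΔAorlmA. In every group but the wild type at 0 h, 1 of the 6 was at 0 in all libraries. The 15 hyphae markers summed to 6073 to 9095 TPM in ΔAorlmA and 4643 to 4900 TPM in wild-type libraries at 0 h, and to 8288 to 14153 TPM in ΔAorlmA and 17830 to 20057 TPM in the wild type at 48 h, with no marker at 0 in all libraries of a group. Most of these sums was 1 gene, AOL_s00112g56, with 4889 to 7506 TPM in ΔAorlmA and 3835 to 4002 TPM in wild-type libraries at 0 h, and 7149 to 12500 TPM in ΔAorlmA and 16008 to 18216 TPM in the wild type at 48 h. Of the 15 hyphae markers 5, all chitin synthase genes, were higher in ΔAorlmA at 0 h and 2 lower (8.87% and 33.8% of all tested genes). The median of the 15 was -0.45, with 9 below 0. At 48 h 2 were higher and 2 lower (9.2% and 14.7%). Over time 3 rose and 1 fell in ΔAorlmA (13% and 8.52%), and 7 rose and 0 fell in the wild type (17.6% and 28.7%). The part of the markers in the results below was not tested. In bulk RNA, fewer cells of a kind and less RNA per cell cannot be told apart.

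The members were abundant, short transcripts. Their values ran from 2.63 to 4382 TPM over all libraries. The median member had a mean of 255 TPM, against 30.6 TPM for the median tested gene, and 72 of the 74 lay above that gene. Their median length was 660 bases, against 1224 bases for all genes. Complex V was the most abundant of the complexes in each group, with a summed level of 7178 ± 526 TPM in ΔAorlmA at 0 h, 9575 ± 732 TPM in wild-type libraries at 0 h, 5976 ± 815 TPM in ΔAorlmA at 48 h and 7755 ± 484 TPM in the wild type at 48 h (SD, n = 3 each). All 74 members together summed to 25082 to 26994 TPM in ΔAorlmA and 30410.1 to 35763 TPM in the wild type at 0 h. At 48 h they summed to 23083 to 23813 TPM in ΔAorlmA and 24349 to 24730.4 TPM in the wild type. On the deposited scale the wild type at 0 h was the highest of the 4 groups, with no overlap with ΔAorlmA at 0 h. Median-of-ratios scaling turned this order, to 27863 to 32781 in ΔAorlmA and 25179 to 27267 in the wild type at 0 h, again without overlap. Of the deposited sums at 0 h, PMA1 alone held 2396 to 4382 TPM in ΔAorlmA and 483 to 577 TPM in the wild type. Complex V overlapped at 0 h with that scaling, at 7628 to 9124 in ΔAorlmA and 7565 to 7967 in the wild type. The median log2 fold change of the 74 members was then -0.05, so the turned sum does not describe most members.

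The comparison of the strains at 0 h asked how they differ at the start of induction. Most subunits of complex I and of the peripheral V1 part of the vacuolar ATPase were lower in ΔAorlmA than in the wild type. PMA1, the alternative NADH dehydrogenase AOL_s00004g5 and AOL_s00215g71, annotated as the complex I subunit NDUFS3, were higher. No gene of complex V was called with all 12 libraries on the deposited scale. Of the 74 members, 3 were higher (8.87% of all tested genes were called higher) and 32 lower (33.8% of all tested genes), a share of lower calls not far above that background. The median log2 fold change of the members was -0.61, or -0.05 relative to all genes, and 41 of 74 lay below the median of all genes. With median-of-ratios scaling 4 members were higher and 1 lower, against 14.3% and 11% of all tested genes. Quantile normalization gave 3 higher and 27 lower (13.4% and 16.8% of all tested genes), with 13 of the lower calls in complex I and 4 in V1, so that the scalings differed in the number of lower calls. The lower calls also hung on single libraries: 10 were left without the third ΔAorlmA library, 17 without the second wild-type library and 9 without the third wild-type library. With both first ΔAorlmA libraries left out 3 were higher and 35 lower (9.62% and 43.7% of all tested genes). Calls that held without any single library were 2 of the 3 higher and 8 of the 32 lower.

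The comparison at 48 h asked the same after induction. PMA1 and 1 alternative NADH dehydrogenase were higher in ΔAorlmA, and 8 members of complexes I, III and V and of the membrane V0 part of the vacuolar ATPase were lower. These 2 higher and 8 lower of 74 stand against 9.2% and 14.7% of all tested genes, and median-of-ratios scaling gave 2 and 7 (10.7% and 12.5%). The median was -0.32, or -0.21 relative to all genes, and 51 of 74 members lay below the median of all genes. Quantile normalization gave 2 and 10 (8.63% and 14.2% of all tested genes). None of the 8 lower calls held when each library was left out in turn. Without the second or the third ΔAorlmA library, or without the third wild-type library, 0 were left, 1 was left without the second wild-type library and 5 without the first. Of the higher calls 4 were made without the first ΔAorlmA library, and 1 was left without the second or the third ΔAorlmA library and without the second or the third wild-type library. Without both first ΔAorlmA libraries, 4 members were higher and 14 lower at 48 h, against 15.5% and 27.2% of all tested genes.

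**Figure D1:**
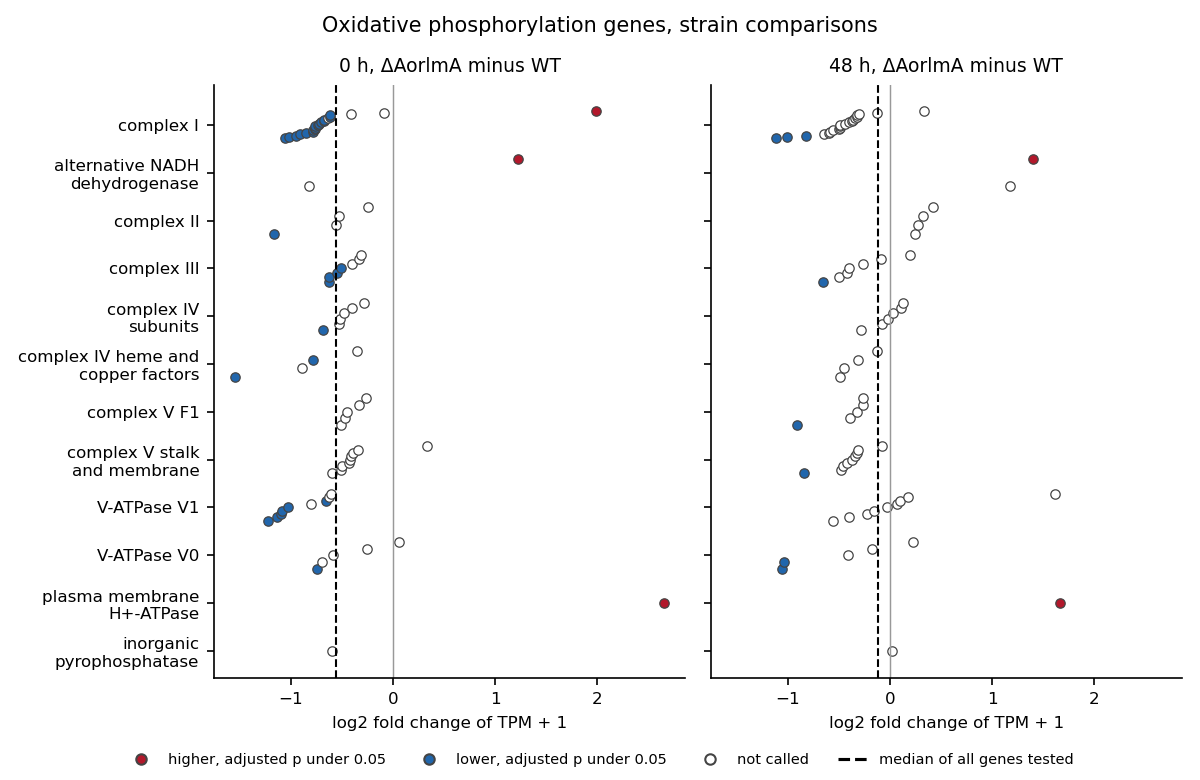
Each point is 1 of the 74 members, placed by its log2 fold change of TPM + 1 (ΔAorlmA minus wild type; x axis) within its complex (y axis), at 0 h on the left and at 48 h on the right; red points were called higher, blue points lower and open points were not called, the grey line marks no change and the dashed line is the median of all tested genes. At 0 h complex I and V1 lie mostly left of the dashed line and complex V mostly right of it; at 48 h complex II lies right of it and complexes I and V lie mostly left.

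Over 48 h the changes were counted in each strain. In ΔAorlmA 4 members rose (13% of all tested genes rose), among them 2 subunits of complex II, and 2 fell (8.52% of all tested genes fell). The median in ΔAorlmA was -0.07, or -0.21 relative to all genes, and with median-of-ratios scaling 2 rose and 11 fell, against 10.2% and 12% of all tested genes. Quantile normalization gave 3 rises and 3 falls in ΔAorlmA (10.5% and 9.75%). Leaving out the first ΔAorlmA library at 0 h gave 8 rises and 6 falls, and leaving out the first at 48 h gave 6 and 4. Leaving out the second at either time gave 2 rises and 0 falls, leaving out the third at 0 h gave 3 and 1, and leaving out the third at 48 h gave 3 and 0. Without both first ΔAorlmA libraries 9 rose and 11 fell, against 22.2% and 14.4% of all tested genes. In the wild type 5 members rose (17.6% of all tested genes rose) and 21 fell (28.7% of all tested genes fell), with 4 and 11 of these held without any single library. The falls lay in the V1 part of the vacuolar ATPase and the subunits of complex IV above all. The median in the wild type was -0.34, or -0.09 relative to all genes, and with median-of-ratios scaling 8 rose and 12 fell, against 24.4% and 23.2% of all tested genes. Quantile normalization gave 7 rises and 23 falls in the wild type (24.3% and 21.3%). The fit without both first ΔAorlmA libraries gave 7 rises and 30 falls in the wild type, against 23.7% and 33.6% of all tested genes. It left out no wild-type library, so every wild-type fold change over time was that of the main fit. Wild-type calls differ in it only because the spread is estimated over all groups together. Whether the change over time differed between the strains was tested by the interaction, which called 0 members higher (3.23% of all tested genes; 8 members at an unadjusted p under 0.05) and 1 lower (1.2% of all tested genes), against 0 and 2 with median-of-ratios scaling (1.37% and 2.3% of all tested genes) and 5 and 2 without both first ΔAorlmA libraries (10.2% and 4.21%). With quantile normalization the interaction called 0 higher and 1 lower (1.23% and 2.3%). Leaving out single libraries gave 0 to 4 higher and 0 to 2 lower. The strain comparison at 0 h and the change over time in the wild type share the wild-type libraries at 0 h.

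**Figure D2:**
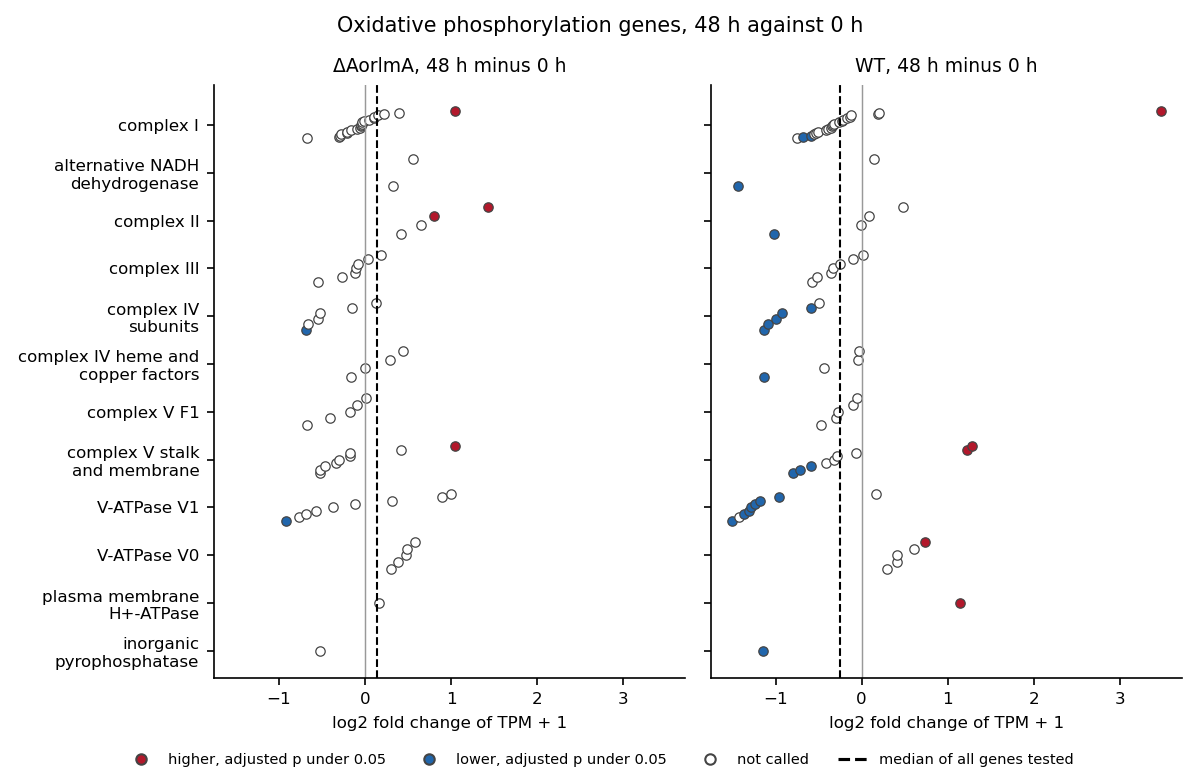
Each point is 1 of the 74 members, placed by its log2 fold change of TPM + 1 (48 h minus 0 h; x axis) within its complex (y axis), in ΔAorlmA on the left and in the wild type on the right; red points rose, blue points fell, open points were not called, the grey line marks no change and the dashed line is the median of all tested genes. In the wild type the complex IV subunits and, except subunit C, the V1 genes lie left of the dashed line and the V0 genes right of it, and in ΔAorlmA the 4 subunits of complex II lie right of it.

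Complex I oxidises NADH, and its matrix arm holds the NADH site and a chain of iron-sulphur clusters. At 0 h 17 of its 21 genes were lower in ΔAorlmA and 1 was higher, with a median of -0.74, or -0.18 relative to all genes; median-of-ratios scaling gave a median of -0.19 and counted 0 lower and 1 higher. The lower calls stand against 33.8% of all tested genes, and 4 of the 17 (NDUFV1, NDUFV2, NDUFB7 and AOL_s00215g80) held without any single library. Without the third wild-type library 5 complex I genes were lower, without the third ΔAorlmA library 6 and without the second wild-type library 12. NDUFS1, which carries electrons away from the NADH site, had 108, 94.6 and 75.2 TPM in ΔAorlmA, against 154, 152 and 163 TPM in the wild type. Its groups did not overlap (-0.76, SE 0.21, limma adjusted p = 0.0135), though the call was lost when the third ΔAorlmA library was left out (0.0525). NDUFV1, the subunit that binds NADH, had 126, 107 and 83.3 TPM in ΔAorlmA, against 182, 179.9 and 232 TPM in the wild type. Its log2 fold change was -0.91 (SE 0.23, limma adjusted p = 0.00829), a call that held without each library in turn but not with median-of-ratios scaling (adjusted p = 0.172). The 3 genes not called were NDUFA5 (limma adjusted p = 0.108), the acyl carrier protein NDUFAB1 (0.738) and AOL_s00110g138 (0.188). This last gene carries the KEGG name NDUFA9, as AOL_s00054g577 does, but its best Swiss-Prot match is HEM4, an enzyme of heme synthesis, so it may not be a complex I subunit.

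At 48 h 20 of the 21 complex I genes lay below the median of all genes, with a median of -0.49 (-0.37 relative to all genes). Of the 21, 3 were called lower, a share near the 14.7% of all tested genes. Quantile normalization called 5 lower at 48 h (14.2% of all tested genes), and the fit without both first ΔAorlmA libraries 7 (27.2%). NDUFB7, a membrane arm subunit, had 207, 129 and 182 TPM in ΔAorlmA at 48 h, against 331, 304 and 395 TPM in the wild type at 48 h. At 0 h it had 232, 319 and 268 TPM in ΔAorlmA, against 505, 522 and 628 TPM in the wild type. The groups did not overlap at either time, with log2 fold changes of -1.01 at 48 h (limma adjusted p = 0.0148) and -1.02 at 0 h (limma adjusted p = 0.00719). The 48 h call ended without the second or the third ΔAorlmA library (adjusted p = 0.0622 and 0.0525) and without the third wild-type library (0.0649), and the 0 h call ended with median-of-ratios scaling (adjusted p = 0.174). NDUFA8 (-1.11, limma adjusted p = 0.0202) and NDUFA6 (-0.82, limma adjusted p = 0.0248), accessory subunits, were lower at 48 h as well. NDUFA8 lost the call without the second or the third ΔAorlmA library (adjusted p = 0.0833 and 0.07) and without the second or the third wild-type library (0.057 and 0.0733), and NDUFA6 lost it when any library except the first of ΔAorlmA was left out (0.0605 to 0.0944). All 3 were also lower with median-of-ratios scaling. Over time complex I had few calls: 1 gene rose in ΔAorlmA (13% of all tested genes), and 1 rose and 2 fell in the wild type (17.6% and 28.7%). Falls in the wild type numbered 4 with quantile normalization (21.3% of all tested genes) and 6 without both first ΔAorlmA libraries (33.6%). The 2 falls in the wild type, NDUFA5 (-0.59, limma adjusted p = 0.027) and NDUFB7 (-0.69, adjusted p = 0.0344), each ended when any of 5 of the 6 wild-type libraries was left out (0.0657 to 0.11 and 0.0583 to 0.121) and with median-of-ratios scaling.

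A pair of genes carry the KEGG name NDUFS3, a core subunit of the matrix arm, and their strain differences at 0 h had opposite signs. AOL_s00215g80, whose best Swiss-Prot match is the Neurospora NDUFS3 protein, had 90.8, 70.7 and 58.1 TPM in ΔAorlmA at 0 h, against 135, 133 and 194 TPM in the wild type at 0 h. AOL_s00215g71, which has no Swiss-Prot match, had 19.4, 9.48 and 22.6 TPM in ΔAorlmA at 0 h, against 2.83, 2.63 and 4.82 TPM in the wild type at 0 h. At 0 h every ΔAorlmA library was thus below every wild-type library for the first gene (-1.06, SE 0.24, limma adjusted p = 0.0058; 0.11 with median-of-ratios scaling) and above for the second (1.99, SE 0.33, adjusted p = 0.00181). At 48 h AOL_s00215g71 had 41.6, 31.9 and 31 TPM in ΔAorlmA, against 49.3, 46 and 46 TPM in the wild type, which was not called (-0.44, adjusted p = 0.351). The wild-type rise over time was the steepest log2 fold change of any member (3.48, SE 0.33, limma adjusted p = 2.71e-05). The rise in ΔAorlmA was smaller (1.05, adjusted p = 0.0415), and its call ended with median-of-ratios scaling (0.061) and without the second 0 h library (0.164) or the first, second or the third 48 h library of ΔAorlmA (0.0991, 0.0804 and 0.0702). The difference between these 2 rises was the single member called in the interaction (-2.43, SE 0.47, adjusted p = 0.022). That call ended without the third ΔAorlmA library at 0 h (0.0504) or 48 h (0.0503), the second wild-type library at 0 h (0.0583), and the second or the third wild-type library at 48 h (0.0582 and 0.0638). AOL_s00215g80 had 63.2, 71.3 and 75.2 TPM in ΔAorlmA at 48 h, against 95.7, 107 and 107 TPM in wild-type libraries at 48 h, and was called neither there (adjusted p = 0.106) nor over time. In every library AOL_s00215g80 stayed the more abundant of the pair.

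Of the alternative NADH dehydrogenases, AOL_s00004g5 had 32.4, 47.1 and 109 TPM in ΔAorlmA at 0 h, against 19, 32.6 and 19.6 TPM in the wild type at 0 h. At 48 h it had 53.1, 100.3 and 62.4 TPM in ΔAorlmA, against 29.1, 32 and 17.9 TPM in the wild type. The groups overlapped at 0 h and did not at 48 h. It was called higher at both times, at 0 h with 1.22 (SE 0.43, limma adjusted p = 0.0361) and at 48 h with 1.40 (SE 0.43, adjusted p = 0.033). The 0 h call ended without the third ΔAorlmA library (0.159) or the first or the third wild-type library (0.0964 and 0.112), and the 48 h call when any library except the first of ΔAorlmA was left out (0.0626 to 0.13). Both calls held with median-of-ratios scaling. The other gene, AOL_s00006g353, had 37.2, 33.8 and 37.1 TPM in ΔAorlmA at 0 h and 60.1, 62.1 and 71.7 TPM in the wild type at 0 h. At 48 h it had 20.9, 88 and 82.5 TPM in ΔAorlmA and 47.2, 18.9 and 13.6 TPM in the wild type. Its strain differences were not called (limma adjusted p = 0.206 at 0 h and 0.107 at 48 h), and it fell over time in the wild type (-1.44, adjusted p = 0.035), a call that ended when any of 5 of the 6 wild-type libraries was left out (0.0667 to 0.145) and with median-of-ratios scaling. Both genes together reached 69.6 to 146 TPM in ΔAorlmA and 79.1 to 94.7 TPM in the wild type at 0 h, far under the summed TPM of complex I.

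Complex II, succinate dehydrogenase, also belongs to the TCA cycle and is built of a flavoprotein (SDHA), an iron-sulphur subunit (SDHB) and a pair of membrane anchors (SDHC and SDHD). At 0 h SDHA alone was lower in ΔAorlmA, with 77.9, 156 and 121 TPM in ΔAorlmA, against 265, 247 and 255 TPM in the wild type. The log2 fold change was -1.16 (SE 0.32, limma adjusted p = 0.0128), without overlap, and the call ended with median-of-ratios scaling (adjusted p = 0.163). At 48 h SDHA had 159, 198 and 113 TPM in ΔAorlmA, against 159, 144 and 86.6 TPM in the wild type, and the groups overlapped. It fell over time in the wild type (-1.02, adjusted p = 0.0193), a call lost without the first wild-type library at 0 h (0.0534) or the third at 48 h (0.0967), and with median-of-ratios scaling.

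SDHB had 347, 413.5 and 366 TPM in ΔAorlmA at 48 h, against 182, 111 and 131 TPM in ΔAorlmA at 0 h. All 3 libraries at 48 h lay above all 3 at 0 h, and the rise (1.43, SE 0.23, limma adjusted p = 0.00295) held without each library in turn and with median-of-ratios scaling (1.26, adjusted p = 0.00447). SDHB in the wild type had 261, 309 and 268 TPM at 48 h, against 191, 179 and 234.1 TPM at 0 h, without overlap but not called (0.48, adjusted p = 0.111). It was called with median-of-ratios scaling (0.72, adjusted p = 0.0216), with quantile normalization (adjusted p = 0.0477) and without both first ΔAorlmA libraries (0.0407). The difference between the 2 changes was not called (adjusted p = 0.104). SDHD rose in ΔAorlmA (0.80, adjusted p = 0.0373), but not without the second or the third 0 h library (0.0968 and 0.0789) or the second 48 h library (0.122) of ΔAorlmA, nor with median-of-ratios scaling. SDHC was not called over time in ΔAorlmA (0.66, adjusted p = 0.0579). The median of the 4 subunits over time in ΔAorlmA was 0.73, or 0.59 relative to all genes. At 48 h all 4 lay above the median of all genes between the strains (median 0.30), with 0 called, 0 of them at an unadjusted p under 0.05. In the interaction 0 were called with limma and 3 passed at an unadjusted p under 0.05, with a median of 0.88. The summed level of complex II relative to complex I was 0.459 to 0.749 in ΔAorlmA and 0.292 to 0.342 in the wild type at 48 h, and 0.262 to 0.365 in ΔAorlmA and 0.239 to 0.284 in the wild type at 0 h, so the ΔAorlmA libraries at 48 h overlapped no other group. Complex II summed to 1557 to 2242 TPM in ΔAorlmA at 48 h, most of it from SDHC and SDHD, so this ratio mainly follows the anchors and not SDHA or SDHB.

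**Figure D3:**
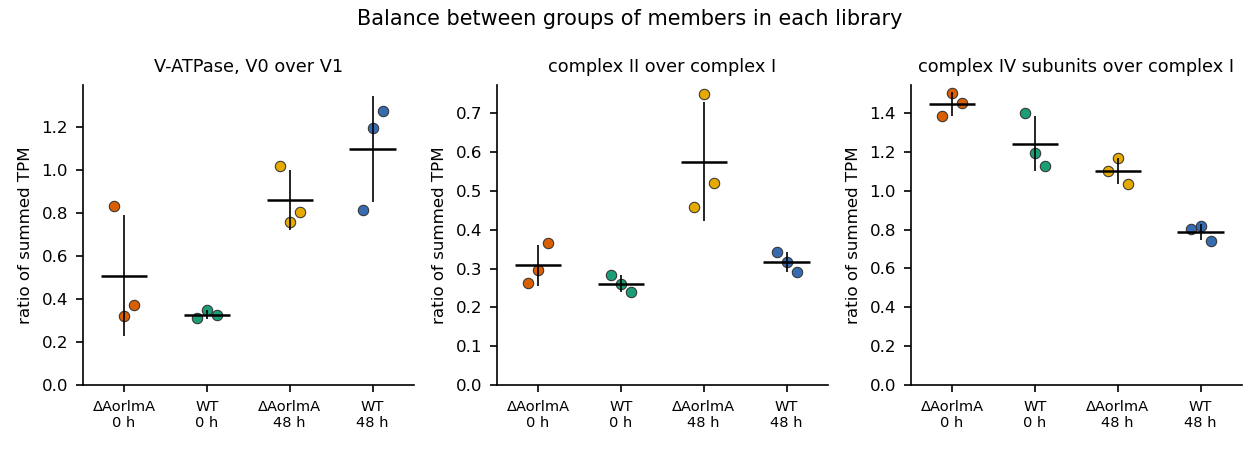
Ratios of summed TPM (y axis) in each of the 12 libraries, grouped by strain and time (x axis): V0 over V1 of the vacuolar ATPase, complex II over complex I, and complex IV subunits over complex I; points are libraries, lines their group means and bars 1 SD. V0 over V1 is low in the wild type at 0 h (0.309 to 0.348) and in 2 of the 3 ΔAorlmA libraries at 0 h, while the first ΔAorlmA library at 0 h (0.830) sits among the 48 h libraries.

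In complex III, the cytochrome bc1 complex, the calls were few after 0 h. At 0 h 4 of 7 subunits were lower in ΔAorlmA (median -0.51), against 33.8% of all tested genes. With median-of-ratios scaling that median was 0.05 and 0 were called lower (11% of all tested genes). The Rieske iron-sulphur protein RIP1 had 224, 238 and 204 TPM in ΔAorlmA at 0 h, against 313, 307 and 356 TPM in the wild type at 0 h. Its log2 fold change of -0.55 (limma adjusted p = 0.0412) became 0.01 (adjusted p = 0.983) with median-of-ratios scaling, and that of the core protein QCR2, -0.51 (adjusted p = 0.0497), became 0.05 (adjusted p = 0.862). RIP1 lost its call when any library except the first or second of ΔAorlmA was left out (0.0768 to 0.123), and QCR2 when any except the first of ΔAorlmA was (0.0659 to 0.132). QCR6, the hinge subunit, and QCR8, a small subunit, were the other 2 lower, and neither call held without the third ΔAorlmA or the third wild-type library (0.109 to 0.142). Cytochrome c1 (-0.33, adjusted p = 0.221) and QCR7 (-0.32, adjusted p = 0.232) were not called. At 48 h QCR8 alone was lower (-0.65, limma adjusted p = 0.0475), a call lost when any library except the first of ΔAorlmA was left out (0.103 to 0.154) and with median-of-ratios scaling. Over time 0 of the 7 were called in either strain with limma (unadjusted p under 0.05: 0 higher and 1 lower in ΔAorlmA, 0 higher and 2 lower in the wild type). Median-of-ratios scaling called 1 fall in ΔAorlmA, QCR8, and the fit without both first ΔAorlmA libraries called the fall of QCR8 in both strains and that of QCR10, another small subunit, in the wild type.

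Complex IV, cytochrome c oxidase, is assembled from a core encoded in mitochondrial DNA and nuclear subunits, of which 6 were measured, given here by their KEGG names. Most of their calls were over time. In the wild type 5 of 6 fell over 48 h (28.7% of all tested genes fell), with a median of -0.96, or -0.71 relative to all genes. With median-of-ratios scaling 4 fell (23.2% of all tested genes). COX6A had 497, 496 and 476 TPM in the wild type at 48 h, against 1101, 991 and 1047 TPM in the wild type at 0 h. In ΔAorlmA it had 623, 465 and 531 TPM at 48 h, against 1015, 859 and 728 TPM at 0 h. The groups did not overlap in either strain. The log2 fold change was -0.68 in ΔAorlmA (SE 0.22, limma adjusted p = 0.0433) and -1.09 in the wild type (SE 0.22, adjusted p = 0.00175), and the interaction was not called (adjusted p = 0.434). The wild-type call held without each library, while that in ΔAorlmA ended without the first or second 0 h library (0.0597 and 0.107) or the second or the third 48 h library (0.12 and 0.0954).

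COX6B (-1.13, limma adjusted p = 0.00188), COX7C (-0.99, adjusted p = 0.00329) and COX5B (-0.92, adjusted p = 0.00538), named here after their values were seen, also fell in the wild type whichever library was left out. In ΔAorlmA they were not called on the deposited scale (-0.66, -0.54 and -0.52, adjusted p = 0.0552, 0.0932 and 0.111), but with median-of-ratios scaling all 3, with COX6A, fell there too. COX4 fell in the wild type (-0.59, adjusted p = 0.031), a call that ended when any 1 of the 6 wild-type libraries was left out (0.0565 to 0.104), and COX5A was not called (-0.50, adjusted p = 0.065). Between the strains COX5B was lower in ΔAorlmA at 0 h (-0.68, limma adjusted p = 0.0279), a call lost without the third ΔAorlmA library (0.103) or any wild-type library (0.0507 to 0.0798) and with median-of-ratios scaling. Quantile normalization called 3 of the 6 lower at 0 h. At 48 h 0 were called with limma, 0 of them at an unadjusted p under 0.05. The median of the 6 at 0 h was -0.50 on the deposited scale and 0.05 with median-of-ratios scaling. Relative to complex I, the summed subunits of complex IV stood at 1.03 to 1.17 in ΔAorlmA and 0.741 to 0.821 in the wild type at 48 h, and at 1.38 to 1.51 in ΔAorlmA and 1.13 to 1.4 in the wild type at 0 h. Within a strain, the ratio was lower in every 48 h library than in every 0 h library.

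Among the factors that equip complex IV with heme and copper, COX15, an enzyme of heme A synthesis, differed between the strains by more than any other lower member at 0 h. It had 18.1, 35.9 and 24.7 TPM in ΔAorlmA at 0 h, against 75.1, 53.8 and 107 TPM in the wild type at 0 h. Without overlap between the groups, the log2 fold change was -1.55 (SE 0.35, limma adjusted p = 0.00596). It was the only one of the 32 lower members still called lower with median-of-ratios scaling (adjusted p = 0.042), and it held without each library. At 48 h COX15 had 46.4, 30.3 and 21.3 TPM in ΔAorlmA, against 33.8, 38.6 and 29.9 TPM in the wild type, with overlap (-0.12, adjusted p = 0.827). Its fall over time in the wild type was called (-1.13, adjusted p = 0.0194) but not without the third wild-type library at 0 h (0.0803) or at 48 h (0.0673). COX10, which makes the heme that COX15 acts on, was lower in ΔAorlmA at 0 h (-0.78, adjusted p = 0.0386), not without the second or the third library of either strain (0.0512 to 0.17). The copper delivery proteins COX11 (-0.35, adjusted p = 0.252) and COX17 (-0.90, adjusted p = 0.0842) were not called at 0 h.

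Complex V, the ATP synthase, consists of a catalytic F1 head and a stalk and membrane part through which protons flow. At 0 h 0 of its 14 genes were called with limma (0 higher and 5 lower at an unadjusted p under 0.05), and 13 of 14 lay above the median of all genes. The median of -0.43 on the deposited scale became 0.13 with median-of-ratios scaling, so its direction rests on the scaling. At 0 h quantile normalization called 2 lower (ATP18 and ATP19), the fit without both first ΔAorlmA libraries 3 (ATP3, ATP19 and ATP21), and median-of-ratios scaling 1 higher. ATP2, the catalytic beta subunit, had 583, 577 and 595 TPM in ΔAorlmA, against 741, 701 and 773 TPM in the wild type (-0.33, adjusted p = 0.215). ATP1, the alpha subunit (-0.26, adjusted p = 0.343), ATP3 of the central stalk (-0.45, adjusted p = 0.0843) and ATP4 of the side stalk (-0.39, adjusted p = 0.171) were not called either, nor was any of these 4 in the other comparisons. At 48 h 13 of 14 lay below the median of all genes and 2 were lower in ΔAorlmA, a share near the 14.7% of all tested genes. These 2 were ATP15, the epsilon subunit of F1 (-0.91, limma adjusted p = 0.0232), and ATP21 (-0.84, adjusted p = 0.0242). Both calls held with median-of-ratios scaling and ended without the second or the third library of either strain (0.0528 to 0.099 for ATP15 and 0.0697 to 0.104 for ATP21).

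The subunits e (ATP21, also called TIM11) and g (ATP20), which in yeast hold ATP synthases together as dimers, were the members of complex V that rose over time. ATP21 had 259, 204 and 185 TPM in ΔAorlmA at 48 h, against 115, 110.5 and 86.8 TPM in ΔAorlmA at 0 h. In the wild type it had 328, 374 and 462 TPM at 48 h, against 153, 144 and 177 TPM at 0 h. It rose without overlap in both strains, by 1.04 in ΔAorlmA (SE 0.23, limma adjusted p = 0.0113) and by 1.28 in the wild type (SE 0.23, adjusted p = 0.000934), and both calls held without each library and with median-of-ratios scaling. ATP20 had 385.8, 412.8 and 405 TPM in the wild type at 48 h, against 174, 165 and 172 TPM in the wild type at 0 h, a rise of 1.23 (SE 0.22, adjusted p = 0.000825) that held likewise. In ΔAorlmA it had 375, 232 and 275 TPM at 48 h, against 229, 202 and 213 TPM at 0 h, which was not called (0.42, adjusted p = 0.176). Its interaction was not called on the deposited scale (-0.81, adjusted p = 0.13) but was with median-of-ratios scaling (-1.21, adjusted p = 0.043), as was its strain difference at 0 h (0.33, adjusted p = 0.233, against 0.88, adjusted p = 0.0104). Over time in the wild type 2 of the 14 genes of complex V rose and 3 fell, against 17.6% and 28.7% of all tested genes. Those that fell were other small membrane subunits: ATP17 (-0.80, limma adjusted p = 0.0155), ATP18 (-0.72, adjusted p = 0.0173) and ATP19 (-0.59, adjusted p = 0.0279). All 3 calls ended with median-of-ratios scaling, ATP17 also without the first wild-type library at 48 h (0.0697), ATP18 without the second (0.0642) and ATP19 when any 1 wild-type library was left out (0.0548 to 0.0931).

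The vacuolar ATPase has a peripheral part, V1, that hydrolyses ATP, and a membrane part, V0, that carries the protons, and in yeast the parts come apart when glucose runs out. Over 48 h in the wild type 7 of the 9 V1 genes fell (28.7% of all tested genes fell), with a median of -1.28, or -1.03 relative to all genes. With median-of-ratios scaling 6 fell (23.2% of all tested genes). None of the 5 V0 genes fell (0 at an unadjusted p under 0.05 as well), all 5 lay above the median of all genes (median 0.41, or 0.66 relative to all genes) and 1 rose, 3 with median-of-ratios scaling. That one, subunit d (0.73, limma adjusted p = 0.0432), lost the call when any wild-type library except the third at 0 h was left out (0.0817 to 0.144). V1 subunit B, a nucleotide-binding subunit, had 127, 75.2 and 74.7 TPM in the wild type at 48 h, against 211, 210 and 237.2 TPM in the wild type at 0 h. Its groups did not overlap (-1.28, SE 0.27, limma adjusted p = 0.00254). The catalytic subunit A gene AOL_s00007g404 had 157, 87.7 and 72.4 TPM in the wild type at 48 h, against 258, 289 and 312 TPM in the wild type at 0 h (-1.51, SE 0.36, adjusted p = 0.00479). Subunits D of the rotor (-1.24, adjusted p = 0.00359), E of the side stalk (-1.31, 0.00335), F (-1.37, 0.00711) and G (-1.18, 0.00185) fell as well, and all 6 calls held without each library. Subunit H, which like D was named for this comparison after its values were seen, fell too (-0.96, adjusted p = 0.0314), not without the second or the third library at 0 h (0.0707 and 0.1) or at 48 h (0.0931 and 0.137) and not with median-of-ratios scaling.

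The 2 V1 genes not called in the wild type were subunit C, which joins V1 to V0 (0.17, limma adjusted p = 0.686), and a second gene for subunit A, AOL_s00159g2 (-1.42, adjusted p = 0.071). The pair of subunit A genes, and the pair annotated as subunit c of V0, could share reads, so the split of reads within each pair is uncertain. AOL_s00159g2 had 6.17, 51.2 and 28.2 TPM in ΔAorlmA at 48 h, against 13.8, 3.93 and 4.14 TPM in the wild type at 48 h, with overlap (1.62, adjusted p = 0.068). In ΔAorlmA the fall of V1 over time was called for subunit E alone (-0.92, adjusted p = 0.0415), lost when any ΔAorlmA library except the first at 0 h was left out (0.0502 to 0.16), with a median of -0.37 over the 9 genes. Median-of-ratios scaling and quantile normalization each gave 2 V1 falls in ΔAorlmA (12% and 9.75% of all tested genes fell). The fit without both first ΔAorlmA libraries gave 3 V1 falls and 2 rises there, against 14.4% and 22.2% of all tested genes. In the interaction 9 of 9 V1 genes lay above the median of all genes, but 0 were called with limma (3 higher and 0 lower at an unadjusted p under 0.05). Without both first ΔAorlmA libraries 3 V1 genes were higher in the interaction (10.2% of all tested genes). The V0 genes in ΔAorlmA had a median of 0.48, with 5 of 5 above the median of all genes and 0 called (0 higher and 0 lower at an unadjusted p under 0.05). Without both first ΔAorlmA libraries 3 of the 5 V0 genes rose in ΔAorlmA (22.2% of all tested genes).

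Between the strains at 0 h, 6 of 9 V1 genes were lower in ΔAorlmA, against 33.8% of all tested genes. Their median was -1.03, or -0.47 relative to all genes, with 9 of 9 below the median of all genes. With median-of-ratios scaling 0 were lower (11% of all tested genes). V1 subunit D had 55.2, 93 and 59.8 TPM in ΔAorlmA at 0 h, against 144, 153 and 184 TPM in the wild type at 0 h (-1.23, SE 0.28, limma adjusted p = 0.00584). V1 subunit B had 93.7, 119.6 and 95.5 TPM in ΔAorlmA at 0 h, against 211, 210 and 237.2 TPM in the wild type at 0 h (-1.09, SE 0.27, adjusted p = 0.00879). These 2 calls held without each library, and the other 4 did not hold without the third wild-type library (0.0756 to 0.126). At 48 h 0 of 9 V1 genes were called with limma (1 higher and 0 lower at an unadjusted p under 0.05). Of the 5 V0 genes 2 were lower (14.7% of all tested genes). Subunit d, which links the stalk to the membrane ring, had 135, 96.2 and 89.3 TPM in ΔAorlmA at 48 h, against 212, 210.5 and 229 TPM in the wild type at 48 h (-1.04, adjusted p = 0.0208). Its call was lost when any library except the first of ΔAorlmA was left out (0.0513 to 0.0904). The ring subunit annotated as c double prime, AOL_s00006g27, was lower as well at 48 h (-1.05, adjusted p = 0.0166), not without the second or the third library of either strain (0.0523 to 0.0694), and at 0 h (-0.74, adjusted p = 0.0371) with overlapping groups, not without the second or the third library of either strain (0.0811 to 0.136). Both 48 h calls held with median-of-ratios scaling. The large subunit a was called in no comparison (adjusted p = 0.89 at 0 h, 0.581 at 48 h, 0.149 over time in ΔAorlmA and 0.245 over time in the wild type).

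The summed TPM of the parts were also set against each other. V0 over V1 was 0.83, 0.319 and 0.371 in the ΔAorlmA libraries at 0 h, against 0.309, 0.348 and 0.324 in the wild type at 0 h. At 48 h it was 1.02, 0.757 and 0.802 in ΔAorlmA, against 0.814, 1.19 and 1.27 in the wild type. The first ΔAorlmA library at 0 h, which stood apart in its overall profile as well, thus had the ratio of a 48 h library, and the other 2 lay near the wild type at 0 h.

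PMA1 builds the proton gradient across the plasma membrane that drives nutrient uptake, and it was the most abundant member in every ΔAorlmA library, while in the wild type at 0 h that was COX6B. It had 3486, 2396 and 4382 TPM in ΔAorlmA at 0 h, against 577, 483 and 527 TPM in the wild type at 0 h. At 48 h it had 3056, 3959.8 and 4225 TPM in ΔAorlmA, against 1429, 1392 and 798 TPM in the wild type. Every ΔAorlmA library was above every wild-type library at either time. The ratio of the means was 6.47 at 0 h (log2 fold change 2.65, SE 0.31, limma adjusted p = 0.000335) and 3.11 at 48 h (1.67, SE 0.31, adjusted p = 0.00677). It rose over time in the wild type (1.14, SE 0.31, adjusted p = 0.00926), without overlap, and was not called over time in ΔAorlmA (0.16, adjusted p = 0.73). The difference between these changes was not called (-0.98, adjusted p = 0.183). Its 3 calls held without each library and with median-of-ratios scaling. Relative to the summed vacuolar ATPase, PMA1 stood at 1.1 to 2.66 in ΔAorlmA and 0.154 to 0.212 in the wild type at 0 h, and at 2.09 to 2.37 in ΔAorlmA and 0.424 to 0.784 in the wild type at 48 h. The pyrophosphatase ppa, which removes the pyrophosphate of biosynthesis, had 583, 602 and 589.9 TPM in the wild type at 48 h, against 1281, 1289 and 1357 TPM in the wild type at 0 h, a log2 fold change of -1.14 (SE 0.27, limma adjusted p = 0.00506) that held without each library and with median-of-ratios scaling. In ΔAorlmA it had 716, 484 and 624 TPM at 48 h, against 564, 1073 and 1056 TPM at 0 h, with overlap (-0.52, adjusted p = 0.184).

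**Figure D4:**
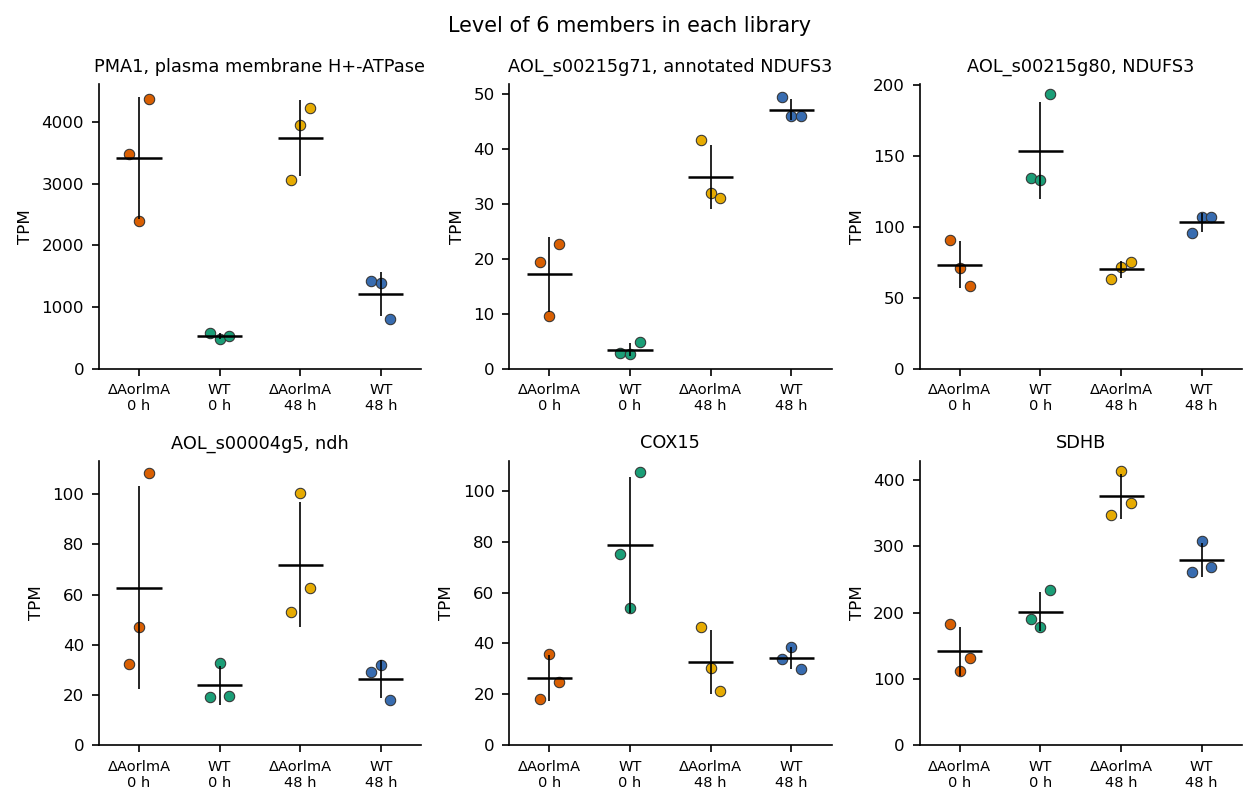
TPM (y axis) of PMA1, the 2 NDUFS3 genes, the alternative NADH dehydrogenase AOL_s00004g5, COX15 and SDHB in each of the 12 libraries, grouped by strain and time (x axis); points are libraries, lines group means and bars 1 SD. PMA1 lies between 2396 and 4382 TPM in ΔAorlmA and at 1429 TPM or less in the wild type, and AOL_s00215g71 is lowest in the wild type at 0 h.

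**Figure D5:**
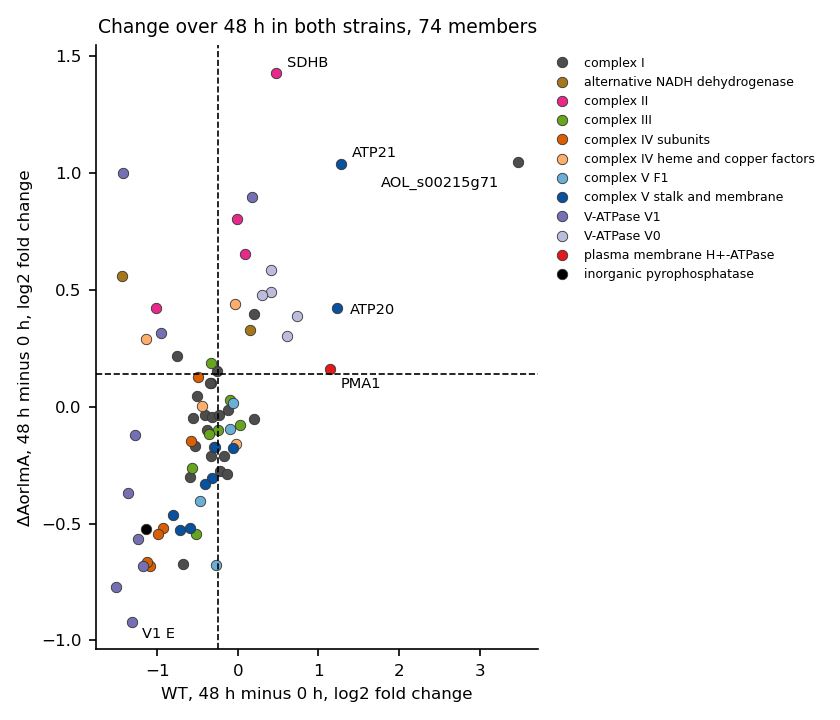
Each point is 1 of the 74 members, placed by its log2 fold change of TPM + 1 over 48 h in the wild type (x axis) and in ΔAorlmA (y axis), coloured by complex; the dashed lines mark the median of all tested genes in each strain. AOL_s00215g71 lies farthest to the right, ATP21 lies above zero on both axes, and the V1 genes lie to the left of zero on the x axis with 1 exception, subunit C.

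Genes that serve the pathway without being listed in it were read from lists of annotation terms. The genes of these lists that are named here were chosen after their values were seen. Of 28 assembly factors of the complexes, 2 were higher and 16 lower in ΔAorlmA at 0 h (median -0.98, or -0.43 relative to all genes; 2 and 9 with median-of-ratios scaling), and 1 was higher and 6 lower at 48 h (1 and 6 under that scaling). The lower calls stand against 33.8% of all tested genes at 0 h and 14.7% at 48 h, and the higher calls against 8.87% and 9.2%. With that scaling the shares were 11% and 12.5% lower, and 14.3% and 10.7% higher. None of these 7 calls at 48 h held when each library was left out in turn: the lower calls numbered 0 without the third ΔAorlmA library or the second or the third wild-type library, 1 without the second ΔAorlmA library and 2 without the first wild-type library, against 13 without the first ΔAorlmA library and 16 without both first ΔAorlmA libraries (27.2% of all tested genes in that fit). The 0 h count of lower calls was 12 without the third ΔAorlmA library, 11 without the third wild-type library and 15 or 16 without any other. Of the 2 higher at 0 h, AOL_s00210g32 had 871, 77.5 and 99.7 TPM in ΔAorlmA, against 47.8, 47.1 and 44.1 TPM in the wild type. Its call ended without the first ΔAorlmA library (limma adjusted p = 0.161) or any wild-type library (0.0842 to 0.115). COX18 (AOL_s00110g121), which in yeast inserts a core subunit of complex IV into the membrane, had 28.4, 19.1 and 16.6 TPM in ΔAorlmA at 0 h, against 73.8, 70.7 and 113 TPM in the wild type at 0 h. It was lower (-1.96, SE 0.29, limma adjusted p = 0.00113), as were COX20 (AOL_s00054g609; -2.04, adjusted p = 0.00212) and COX16 (AOL_s00043g65; -1.90, adjusted p = 0.00327), which also serve complex IV assembly. These 3 calls held without each library and with median-of-ratios scaling. Over time 4 assembly factors rose and 1 fell in ΔAorlmA (13% and 8.52% of all tested genes), with 8 rises without the first 0 h library, 3 to 5 without any other and 0 to 2 falls. In the wild type 8 rose and 6 fell (17.6% and 28.7% of all tested genes), with 4 rises without the first or second library at 0 h or the second or the third at 48 h. Of 8 genes of coenzyme Q synthesis, which make the ubiquinone that complexes I and II reduce, 6 were lower in ΔAorlmA at 0 h (median -1.34, or -0.79 relative to all genes) and 4 at 48 h (median -0.92), with 4 and 4 with median-of-ratios scaling and 0 higher at either time. These stand against 33.8% of all tested genes lower at 0 h and 14.7% at 48 h, and with that scaling against 11% and 12.5%. At 48 h 1 of the 4 was left without the third ΔAorlmA library, and 2 were without the second ΔAorlmA library or the second or the third wild-type library. COQ2 (AOL_s00188g102), which joins the ring of ubiquinone to its tail, had 5.74, 7.05 and 5.15 TPM in ΔAorlmA at 0 h, against 17.2, 15.3 and 30.4 TPM in the wild type at 0 h. It was lower without overlap at 0 h (-1.60, SE 0.31, limma adjusted p = 0.00322) and at 48 h (-1.50, SE 0.31, adjusted p = 0.0092), without each library in turn and with median-of-ratios scaling. The 2 prohibitins, scaffold proteins of the inner membrane, were both lower at 0 h (33.8% of all tested genes), and 0 were with median-of-ratios scaling. The call of PHB1 ended without the third ΔAorlmA library (0.0801) or the third wild-type library (0.12). Of the 4 genes of the pyruvate dehydrogenase complex 0 were called with limma between strains or over time. The genes at an unadjusted p under 0.05 were 1 with a lower value in ΔAorlmA at 0 h, 0 at 48 h, 1 with a higher value at 48 h than at 0 h in ΔAorlmA, and 1 with a higher and 1 with a lower value at 48 h than at 0 h in the wild type. With median-of-ratios scaling 1 was called as rising in the wild type. The alternative oxidase, which takes electrons from ubiquinone past complexes III and IV, had 166, 72.3 and 89.3 TPM in ΔAorlmA at 48 h, against 13.6, 74.4 and 31.3 TPM in the wild type at 48 h, with overlap and not called (1.65, limma adjusted p = 0.0643).

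Cytochrome c, the carrier between complexes III and IV, was among the most abundant of these genes. AOL_s00081g186 had 3489, 3664 and 4827 TPM in ΔAorlmA at 0 h, against 1462, 1008 and 726 TPM in the wild type at 0 h. Its values at 48 h were 4412, 3932 and 4698 TPM in ΔAorlmA, against 3181, 3036 and 2789 TPM in the wild type. It was higher in ΔAorlmA at 0 h (1.95, SE 0.29, limma adjusted p = 0.00105) and rose over time in the wild type (1.55, SE 0.29, adjusted p = 0.0011), both without overlap, without each library in turn and with median-of-ratios scaling, and its interaction was not called (adjusted p = 0.0625). Cytochrome c peroxidase, AOL_s00076g248, which uses cytochrome c to reduce hydrogen peroxide, fell over time in ΔAorlmA (-1.21, limma adjusted p = 0.00478) and in the wild type (-0.99, adjusted p = 0.00356), without each library and with median-of-ratios scaling. It was lower in ΔAorlmA at 48 h (-0.80, adjusted p = 0.025), a call lost when any library except the first of ΔAorlmA was left out (0.0573 to 0.0972) and with median-of-ratios scaling. The lyase that attaches heme to cytochrome c, AOL_s00097g545, was higher in ΔAorlmA at 0 h (1.06, adjusted p = 0.017), not without the third library of either strain (0.0734 for ΔAorlmA and 0.0652 for the wild type). The phosphate carrier AOL_s00097g316, which supplies phosphate to complex V, was also higher at 0 h (0.75, adjusted p = 0.0326) and rose in the wild type (0.80, adjusted p = 0.0215), calls that ended without the second or the third library of any group compared (0.081 to 0.123 at 0 h and 0.0635 to 0.0782 over time). A second phosphate carrier gene by KEGG name, AOL_s00169g250, had 88.2, 355 and 210.3 TPM in ΔAorlmA at 48 h, against 62.2, 37.9 and 29.8 TPM in the wild type at 48 h (2.16, SE 0.45, limma adjusted p = 0.00946), a call that held without each library and with median-of-ratios scaling. It was not called at 0 h (0.72, adjusted p = 0.209) or over time in the wild type (-0.82, adjusted p = 0.154). The ADP/ATP carrier AOL_s00006g249 rose in the wild type (1.00, limma adjusted p = 0.0107), also without each library in turn. AOL_s00169g33, annotated with the HIG1 domain of yeast supercomplex factors, had 5400.1, 10742 and 15952 TPM in ΔAorlmA at 0 h, against 4190, 2688 and 494 TPM in the wild type at 0 h. The 48 h values were 4752, 6778 and 7991 TPM in ΔAorlmA, against 918, 1335 and 559.5 TPM in the wild type. It was higher at 0 h (2.46, SE 0.67, adjusted p = 0.0127) and at 48 h (2.85, SE 0.67, adjusted p = 0.0134), without overlap, and its level exceeded that of every member in each ΔAorlmA library. The 0 h call ended without the third ΔAorlmA library (0.0531), and the 48 h call without the third library of ΔAorlmA (0.0592) or of the wild type (0.0587). The other gene so annotated, AOL_s00215g332, had 45.8, 71.4 and 56.9 TPM in ΔAorlmA at 0 h, against 127, 131 and 165 TPM in the wild type at 0 h. It was lower at 0 h (-1.28, SE 0.24, limma adjusted p = 0.00281), without each library and with median-of-ratios scaling (adjusted p = 0.0402), and was not called at 48 h (-0.66, adjusted p = 0.0627).

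The authors' deposited table of calls marked fewer members in each comparison, though more of them as higher at 48 h. The labels state no test for it, so its criteria may be unlike those used here. At 0 h the authors' deposited table gave 3 members higher in ΔAorlmA, AOL_s00215g71, AOL_s00004g5 and PMA1, and 0 lower, against 15.3% of all genes called higher in it and 8.3% lower. At 48 h the table gave 4 higher, both alternative NADH dehydrogenases, AOL_s00159g2 and PMA1, and 0 lower (15.8% and 8.33% of all genes in the authors' deposited table). Over time in ΔAorlmA the authors' deposited table gave 2 higher, SDHB and AOL_s00159g2, and 2 lower, AOL_s00007g404 and V1 subunit E (8.89% and 13% of all genes). Over time in the wild type the authors' deposited table gave 4 higher, AOL_s00215g71, ATP21, ATP20 and PMA1, and 6 lower, AOL_s00006g353, both genes of V1 subunit A and V1 subunits B, E and F (17.9% and 21.6% of all genes).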

How the data were processed

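RNA from hyphae was sequenced in 12 libraries, grouped by the genotype and time labels, with replicate numbers from the titles. The description labels of the second and the third ΔAorlmA library at 48 h repeat the name of the first, so these are told apart by title alone. The authors deposited TPM per gene, and a second table with FPKM, coding length and annotation. FPKM was proportional to TPM within each library to 0.0435% for genes of at least 20 TPM, and was used for the annotation only. The authors also deposited counts of clean reads (48.5 to 61.1 M per library) and the percent of bases of quality 30 (94.3% to 94.7%). No counts per gene were used here, since the table labelled as raw counts held correlations. A deposited table of the authors' own calls was used for comparison. Aligner, quantifier and genome build were not given in the sources used here. The tables also hold 8 columns of group means, which were not used.

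In place of a count test, limma 3.58.1 (in R 4.3.3, eBayes with a variance trend) was fitted to log2(TPM + 1) of all 12 libraries, with 1 mean for each group. It covered the 9355 genes that reached 1 TPM in 3 or more libraries. Fold changes on this scale understate the change of low genes. All tests were two-sided and their p-values Benjamini-Hochberg adjusted over every tested gene. Tables and plots were made with Python 3.11.15, pandas 2.3.3, numpy 2.4.6 and matplotlib 3.10.9. The fit was tested on simulated data. Alternatives were median-of-ratios scaling, quantile normalization, a pseudocount of 0.1, no filter, a filter of 5 TPM, a replicate block and each library left out. Precision is limited by the number of libraries and by their depth, and the share of each in the error was not separated.

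The members and lists were chosen with earlier results of these data known. Named members are core subunits taken by KEGG name, the called member of lowest adjusted p in each complex, direction and comparison, and up to 5 called members of largest fold change with at least 5 TPM and no overlap; others are said to be chosen later or stand in counts of 5 or fewer. Each of the 11479 gene names was found among the locus tags in RefSeq. No sequences or coordinates are given. For 1 of the genes that were to be named, the result is not reported here.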

Additional observations from a re-analysis of the deposited data

Results flagged for a closer look

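The second gene named NDUFS3, AOL_s00215g71, was the member whose change over time differed between the strains by the interaction test (log2 fold change -2.43, limma adjusted p = 0.022). It had 41.6, 31.9 and 31 TPM in ΔAorlmA at 48 h, against 19.4, 9.48 and 22.6 TPM in ΔAorlmA at 0 h. In the wild type it had 49.3, 46 and 46 TPM at 48 h, against 2.83, 2.63 and 4.82 TPM at 0 h. Every ΔAorlmA library was above every wild-type library at 0 h, and the strains were not called apart at 48 h (log2 fold change -0.44, limma adjusted p = 0.351). The gene has no Swiss-Prot match, and 2.63 TPM is the lowest value of any member in any library. The interaction call ended in 5 of the 12 fits that left out 1 library, with adjusted p of 0.0503 to 0.0638. It was kept under median-of-ratios scaling and with a replicate block.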

How the results depend on the processing

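Counts of called members moved with the scaling and with single libraries. With median-of-ratios scaling 1 member was lower at 0 h (32 as deposited), 8 rose and 12 fell over time in the wild type (5 and 21), 2 rose and 11 fell over time in ΔAorlmA (4 and 2) and 2 were lower in the interaction (1). Under the same scaling RIP1 (AOL_s00097g160) and QCR2 (AOL_s00215g202) were among the members that changed sign at 0 h, to 0.0060 and 0.048. The 0 h medians turned as well: from -0.51 to 0.05 in complex III, from -0.50 to 0.05 in the complex IV subunits and from -0.43 to 0.13 in complex V. Quantile normalization kept the counts over all 74 members within 1.5 times, with 27 lower at 0 h and 7 rises and 23 falls in the wild type. Without both first ΔAorlmA libraries 4 were higher and 14 lower at 48 h, 9 rose and 11 fell over time in ΔAorlmA, and 5 were higher and 2 lower in the interaction; the libraries were chosen for standing apart, which favours larger counts. Leaving out 1 library gave 2 to 3 higher and 9 to 32 lower at 0 h, 1 to 4 and 0 to 10 at 48 h, 2 to 8 rises and 0 to 6 falls over time in ΔAorlmA, 4 to 5 and 14 to 18 in the wild type, and 0 to 4 and 0 to 2 in the interaction. The cause was not tested.

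Replicate numbers did not pair the libraries: 5 of 18 same-numbered pairs correlated above 0.1 (range -0.316 to 0.188). A replicate block gave 21 lower at 0 h and 0 falls over time in ΔAorlmA, with the other counts within 1.5 times. Of 137 values per setting, a pseudocount of 0.1 and a filter of 5 TPM changed the call of 1 each.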
